A study of Mus musculus with 6 samples.

Results

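The genes described here are the extracellular metalloproteases and their inhibitors in MLE12 cells, an immortalized mouse lung epithelial line. They comprise the matrix metalloproteases (MMPs), the ADAM and ADAMTS proteases and the tissue inhibitors of metalloproteases (TIMPs). They were chosen by symbol alone, from the pattern of the 4 family names, and 79 matched among the 46078 genes counted: 23 Mmp, 33 Adam, 19 Adamts and 4 Timp genes. Messenger RNA was sequenced from 6 cultures, 1 library each. A wild-type (parental) monolayer was left intact, another wild-type monolayer was collected 24 hours after a wound made with a pipet tip, and 4 lines were collected at the same time after the same wound, with a knockout (KO) of Lingo1, Lingo2, Lingo3 or TROY. LINGO proteins are leucine-rich repeat receptors, and TROY, a receptor of the tumour necrosis factor family, is the product of Tnfrsf19. All 6 libraries share the MLE12 background, and no mutant line had an unscratched library, so an effect of a knockout and a changed response to the scratch cannot be told apart. How the knockouts were made and whether a line is 1 clone is not given in the sources used here. With 1 library in each group there is no replicate error and no p-value, and every interval below covers counting error only.

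MMPs cut collagens and other matrix proteins. The secreted ones are released as inactive precursors and the membrane-type ones are anchored at the cell surface. ADAM proteases are transmembrane enzymes, of which ADAM10 and ADAM17 release growth factors, receptors and adhesion molecules from the cell surface, while ADAMTS proteases are secreted and act on procollagens, proteoglycans, fibrillin microfibrils and von Willebrand factor. TIMPs bind the active site of these enzymes, and TIMP3, which binds to the matrix, also inhibits several ADAMs and ADAMTSs. In the lung these enzymes take part in epithelial migration over a wound, in alveolar remodelling and in the shedding of epidermal growth factor receptor ligands.

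Between 28109825 and 30776294 reads were counted in genes per library. Levels are given as CPM, counts per 1000000 reads after TMM scaling of the libraries, and a gene was tested where its mean over the 6 libraries was at least 1 CPM, which 12078 genes reached. Of the targeted genes, Lingo1 was counted at 27.6 and 24.5 CPM in the unscratched and scratched parental libraries and at 57.0 CPM in the Lingo1 knockout, so its transcript level did not mark the knockout. In the Lingo2, Lingo3 and TROY mutants Lingo1 was above the parental libraries too, at 52.0, 51.3 and 34.7 CPM. Lingo2 and Lingo3 had 0 counts and Tnfrsf19 at most 1 count in the parental libraries, where they check nothing. Of 6 epithelial markers 4 were tested, with Cdh1 and Krt8 at over 300 CPM in the parental cells, while Krt18 and Cldn4 had a mean under 1 CPM. Of 8 alveolar type II genes 4 were tested, Nkx2-1, Abca3, Sftpb and Sftpc, and these were present in the parental cells. Sftpa1, Lamp3 and Slc34a2 had a mean under 1 CPM, and Sftpd had 0 counts in every library. The fibroblast-associated gene Dcn stood at 2760 and 2532 CPM in the unscratched and scratched parental libraries.

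Of the 79 genes, 26 were tested: 7 of the MMPs, 8 of the ADAMs, 8 of the ADAMTSs and 3 of the TIMPs. Another 29 had counts but a lower mean, and 24 had 0 counts in all 6 libraries. The silent genes included 14 ADAMs, most of them known from testis, and the MMP genes Mmp7 (matrilysin), Mmp8 (neutrophil collagenase), Mmp12 (macrophage elastase), Mmp20 (enamelysin), Mmp1b and Mmp27. Mmp9, the gelatinase of wounded epithelium and neutrophils, had 1 count in the 6 libraries together. Macrophage and leukocyte markers were near 0 as well: the 8 genes of that list summed to between 2.62 and 2.76 CPM in the parental and between 3.19 and 3.87 CPM in the mutant libraries, with Adgre1 and Marco at 0 counts in every library.

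The order of levels between genes was read from the authors' RPKM values, which are per length of gene and were available for 34 of the 79 genes. The inhibitor Timp2 stood highest. It had a mean RPKM of 423 over the 6 libraries (range 388 to 446), and its range was apart from that of the second gene, Adam10, at 119 (104 to 135). Timp3, Adam15 and Adam9 followed at 66.1, 64.2 and 60.8 RPKM, with overlapping ranges, and Adam17 at 36.3 overlapped Mmp11 at 33.4. Mmp14 at 15.7 and Timp1 at 14.9 RPKM also overlapped, and Mmp13 came next at 8.24. Adamts10, at 5.40 RPKM, was the ADAMTS gene with the highest mean.

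**Figure D1:**
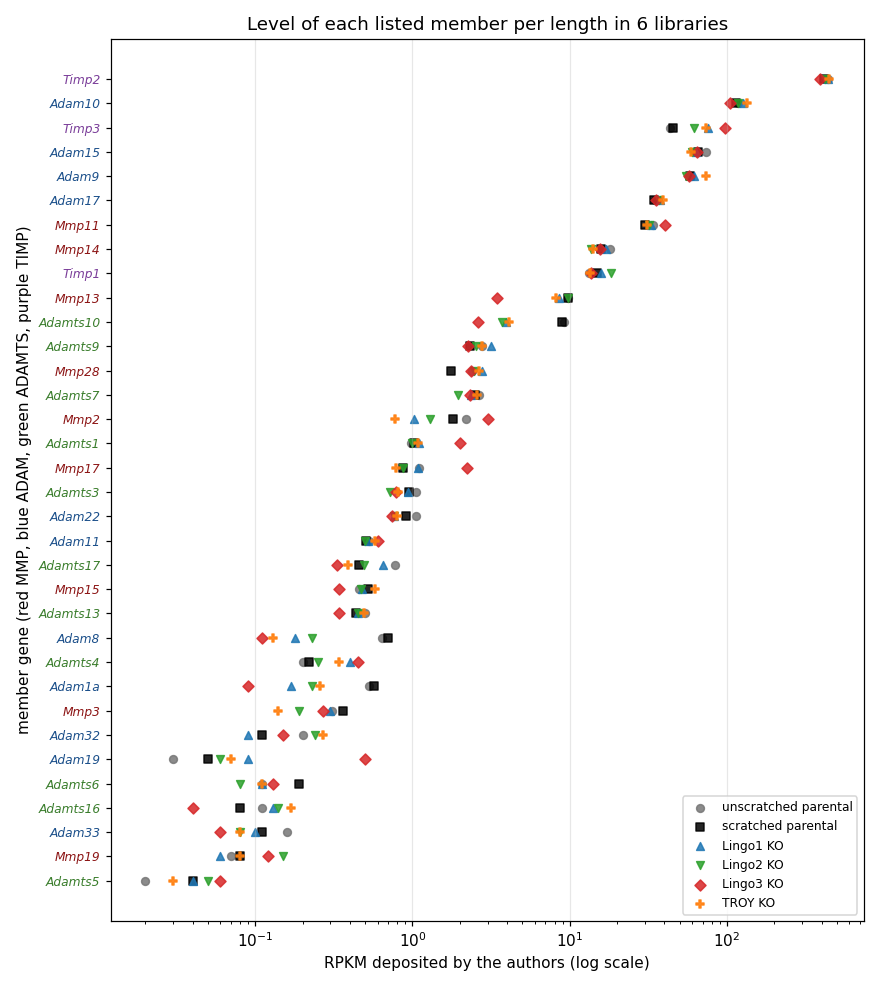
Level of each of the 34 listed genes in each library, as RPKM deposited by the authors on a log axis, 1 point per library and genes ordered by their mean. Timp2, at 388 to 446 RPKM, lies apart from Adam10, and most neighbours further down have overlapping ranges.

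A few genes carried most of each family's signal. Adam10 made up between 39.5% and 43.7% of the summed RPKM of the ADAM genes, and Mmp11 between 49.2% and 59.6% of that of the MMP genes. Timp2 made up 88.6% and 87.3% of the TIMP sum in the unscratched and scratched parental libraries, and between 77.7% and 83.8% in the 4 mutants. Adamts10 made up 50% and 52% of the ADAMTS sum in the parental libraries but between 23% and 32.7% in the mutants. The summed RPKM of the ADAMTS genes was 18.3 and 17.2 in the parental libraries and between 11.3 and 13.3 in the mutants, without overlap. Most of that difference was Adamts10 itself, at 9.16 and 8.93 RPKM in the parental libraries and between 2.6 and 4.09 RPKM in the mutants.

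A pair of libraries was compared by the ratio of their scaled counts, with the exact 95% interval of that ratio from the 2 counts. A gene is called higher or lower if it differed at least 2-fold and its interval stayed beyond 1.5-fold. This is a rule of size, not a test. In the parental cells 24 hours after the scratch, 0 of the 26 tested genes were called. Only 0.0828% of all tested genes were, so this count is not particular to these genes. Below the filter, 2 members passed the rule, Mmp1a and Mmp10, described further on. The median log2 ratio of the 26 genes was -0.08, against -0.01 over all tested genes. The largest movement was that of Adamts17, at 5.06 CPM in the unscratched and 2.96 CPM in the scratched library, 1.71-fold (1.31 to 2.25) and not called.

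In the mutants against the scratched parental library, few of the 26 genes were called, and these were genes of low or middle level apart from Timp3. Among them, Adam8 and Adam1a passed the filter only through the parental libraries. In the Lingo1 mutant 3 of 26 were called, all lower (Adam8, Adam1a and Adamts10), where 3.62% of all tested genes were called in either direction, 1.67% lower and 1.95% higher. In the Lingo2 mutant Adam8, Adam1a and Adamts10 were lower as well (background 3.5% in either direction, 1.38% lower and 2.12% higher). In the Lingo3 mutant 6 were called, with Mmp17 and Timp3 higher and Adam8, Adam1a, Adamts10 and Mmp13 lower (background 7.19%, with 4.63% higher and 2.56% lower). In the TROY mutant 3 were lower, Adam8, Adamts10 and Mmp2 (background 2.24%, with 1.18% lower and 1.06% higher). The median log2 ratio of the 26 genes was 0.09, -0.01, -0.05 and 0.06 in the Lingo1, Lingo2, Lingo3 and TROY mutants, against 0.01, 0.02, 0.01 and 0.02 over all tested genes. The 4 comparisons share the scratched parental library, so a level that is high in that library alone lowers a gene in all 4. The unscratched parental library, which they do not share, gave 4, 3, 8 and 3 called genes as the control, with background shares of 3.17%, 2.95%, 6.85% and 2.25%. Adam8 and Adamts10 were lower in all 4 mutants against that library too, and Adam1a in the 3 LINGO mutants. Mmp2 in the Lingo1 mutant and Adamts17 in the Lingo3 mutant were lower, and Adamts1 in the Lingo3 mutant higher, against the unscratched library only.

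The 29 less abundant genes passed the rule in 3 cases in the Lingo1 mutant (0 higher, 3 lower), 3 in the Lingo2 mutant (1 higher, 2 lower), 7 in the Lingo3 mutant (4 higher, 3 lower) and 4 in the TROY mutant (0 higher, 4 lower), against the scratched parental library. The same rule was passed by 2.74%, 2.63%, 4.91% and 2.32% of all genes with counts below the filter. Mmp1a and Mmp10, high in that library alone, were among the lower genes in all 4. Against the unscratched parental library, Mmp24 alone passed in the Lingo1 mutant and Adamts14 alone in the Lingo2 and TROY mutants, as higher. In the Lingo3 mutant Adam19, Adamts2, Adamts14 and Mmp24 passed as higher and Mmp23 as lower. Adam4, Mmp25 and Adamts15, and Mmp23 in the TROY mutant, passed against the scratched library only. The 19 other less abundant genes passed in none of the 5 comparisons. They included Adamts5, the aggrecanase of cartilage, with 77 counts in all, Adamts6 with 167 and Mmp19 with 57.

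**Figure D2:**
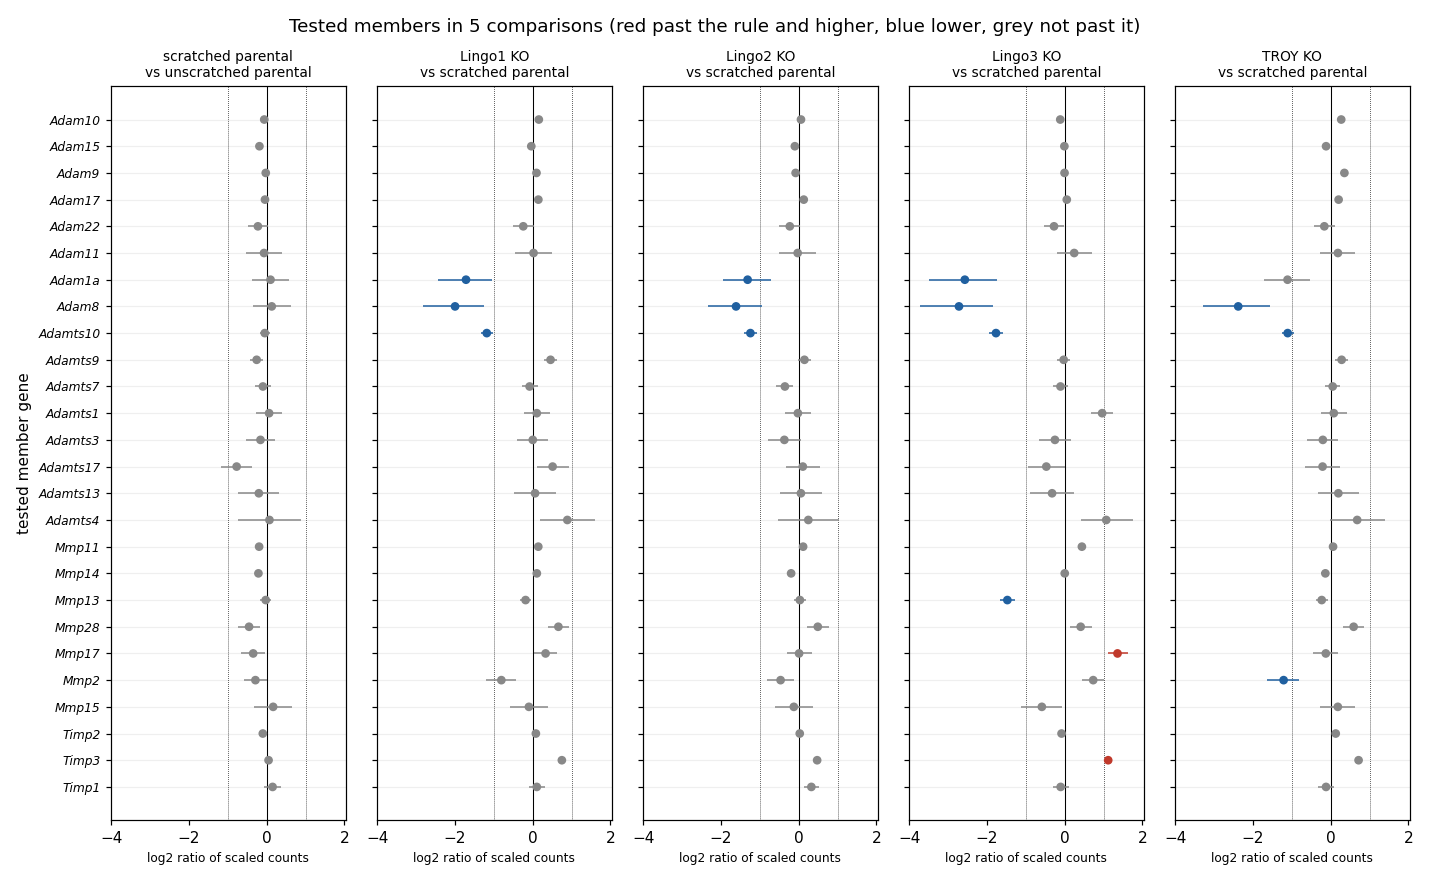
Log2 ratio of scaled counts for the 26 tested genes in the 5 comparisons, with 95% counting intervals. Red points passed the rule as higher, blue as lower and grey did not pass, and dotted lines mark a fold of 2. No point is coloured in the scratch comparison, and Adam8 has the lowest ratio in each of the 4 mutant comparisons.

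Apart from Mmp11 (stromelysin 3) on chromosome 10, the secreted collagenases and stromelysins lie side by side on chromosome 9, where 10 Mmp genes span 427 kb (chr9:7272514-7699585, GRCm38). Of these, 6 had 0 counts in all libraries, and Mmp13, the main interstitial collagenase of rodents, was the 1 tested gene. The promoters of the 4 genes with counts are shown because they share a motif close to the start that, among the 19 tested genes with a promoter window, Mmp13 alone has. The windows are the 250 bases before the annotated start in RefSeq (build GRCm38.p6), and capitals mark the AP-1 letters TGAGTCA or, read from the opposite strand, TGACTCA.
Mmp13, chr9:7272264-7272513, plus strand: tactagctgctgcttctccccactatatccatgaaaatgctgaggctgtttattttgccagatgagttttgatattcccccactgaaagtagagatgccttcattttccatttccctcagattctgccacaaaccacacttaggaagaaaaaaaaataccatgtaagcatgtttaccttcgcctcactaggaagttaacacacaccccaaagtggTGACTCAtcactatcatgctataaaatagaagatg
Mmp3, chr9:7445572-7445821, plus strand: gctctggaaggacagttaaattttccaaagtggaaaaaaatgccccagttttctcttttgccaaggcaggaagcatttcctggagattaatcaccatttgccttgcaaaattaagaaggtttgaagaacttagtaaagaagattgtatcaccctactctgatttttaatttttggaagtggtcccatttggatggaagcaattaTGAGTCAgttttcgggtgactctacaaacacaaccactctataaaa
Mmp1a, chr9:7463891-7464140, plus strand: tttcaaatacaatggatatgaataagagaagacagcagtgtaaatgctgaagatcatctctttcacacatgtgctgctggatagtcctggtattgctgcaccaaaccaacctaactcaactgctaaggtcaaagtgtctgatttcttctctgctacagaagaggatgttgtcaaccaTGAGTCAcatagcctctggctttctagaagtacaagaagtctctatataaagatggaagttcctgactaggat
Mmp10, chr9:7502092-7502341, plus strand: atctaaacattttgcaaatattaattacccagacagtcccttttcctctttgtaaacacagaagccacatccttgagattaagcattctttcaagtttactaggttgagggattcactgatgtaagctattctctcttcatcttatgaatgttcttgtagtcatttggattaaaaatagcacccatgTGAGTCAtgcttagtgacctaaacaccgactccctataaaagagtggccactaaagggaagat
The first capital lies 35, 46, 73 and 63 bases before the start of Mmp13, Mmp3, Mmp1a and Mmp10. Mmp12, Mmp1b and Mmp7, which had 0 counts in every library, hold the same letters 44, 93 and 63 bases before the start. The letters are thus not particular to the genes with counts. Searched on both strands, the AP-1 letters were in 7 of the 12 windows of the 10 clustered genes (58.3%), in 2 of the 42 windows of other members (4.76%) and in 4.46% of the 32817 promoter windows of all genes. The letters TATAAA, searched in the same way, were also in 58.3% of the clustered windows, against 12.4% of all. The GC box letters CCGCCC were in none of the clustered windows, in 14 of 19 windows of tested members (73.7%) and in 32.7% of all. The tested members passed a filter on level that was not applied to the windows of all genes. The share among all tested genes was not computed, so the GC box shares are not of like sets. No match of 1 motif overlapped that of another in these genes. In all, 49 of the 79 genes matched a window. These are matches of letters and not shown binding sites.

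Mmp13 was low in 1 library. It was counted at 26.6 CPM in the unscratched and 26.1 CPM in the scratched parental library, and at 23.0, 26.7, 9.38 and 22.2 CPM in the Lingo1, Lingo2, Lingo3 and TROY mutants. The Lingo3 mutant thus stood below the other 5 libraries, which lay close together. Against the scratched parental library Mmp13 was 2.78-fold lower there (2.43 to 3.20), and it was also 2.45-fold lower than in the Lingo1, 2.84-fold lower than in the Lingo2 and 2.37-fold lower than in the TROY mutant. By the size rule, Mmp13 was the 1 of the 26 genes lower in the Lingo3 library than in each of the 4 other scratched libraries, where 0.141% of all tested genes were. No other annotated gene overlapped it.

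Mmp1a and Mmp10 were counted almost only in the scratched parental library. Mmp1a, an interstitial collagenase whose gene the annotation lists as a polymorphic pseudogene, had 30 counts there and 0 in each of the other 5 libraries. Mmp10, stromelysin 2, had 23 counts there and 1, 3, 2, 1 and 2 in the unscratched parental, Lingo1, Lingo2, Lingo3 and TROY libraries. Both are below the filter. Against the unscratched library the Mmp1a ratio was 9.42 with the 0 replaced by 3 counts, a value set by that floor and not a lower bound. The Mmp10 ratio was 21.7, with a counting interval of 3.52 to 893. They were the 2 of the 29 less abundant members that passed the rule in the scratch comparison, where 1.19% of such genes did. Both passed as lower in all 4 mutants against the scratched parental library, and in no mutant against the unscratched one. Their neighbour Mmp3, stromelysin 1, did not pass, with 16, 20, 15, 10, 15 and 8 counts in the unscratched and scratched parental, Lingo1, Lingo2, Lingo3 and TROY libraries.

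The scratched parental library held further transcripts that were scarce elsewhere. In it 99 genes reached 10 or more counts and a scaled level 4 or more times that of each other library, 70 of them pseudogenes and 28 protein-coding, with 2432 counts in all, while the unscratched and Lingo1 libraries had 0 such genes, the Lingo2 and TROY libraries 1 each and the Lingo3 library 71, none of them a pseudogene. Among endothelial markers, Cdh5 went from 0 counts in the unscratched to 20 in the scratched parental library and Kdr from 12 to 74, while Pecam1 had 9 and 8, Tek 2909 and 2630, and Emcn 0 in both. The 5 endothelial markers, mostly Tek, summed to 102 CPM in the unscratched and 89.8 CPM in the scratched parental library. Vwf, the substrate of ADAMTS13, went from 16 to 169 counts. The part of such transcripts in the Mmp1a and Mmp10 counts was not tested.

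**Figure D3:**
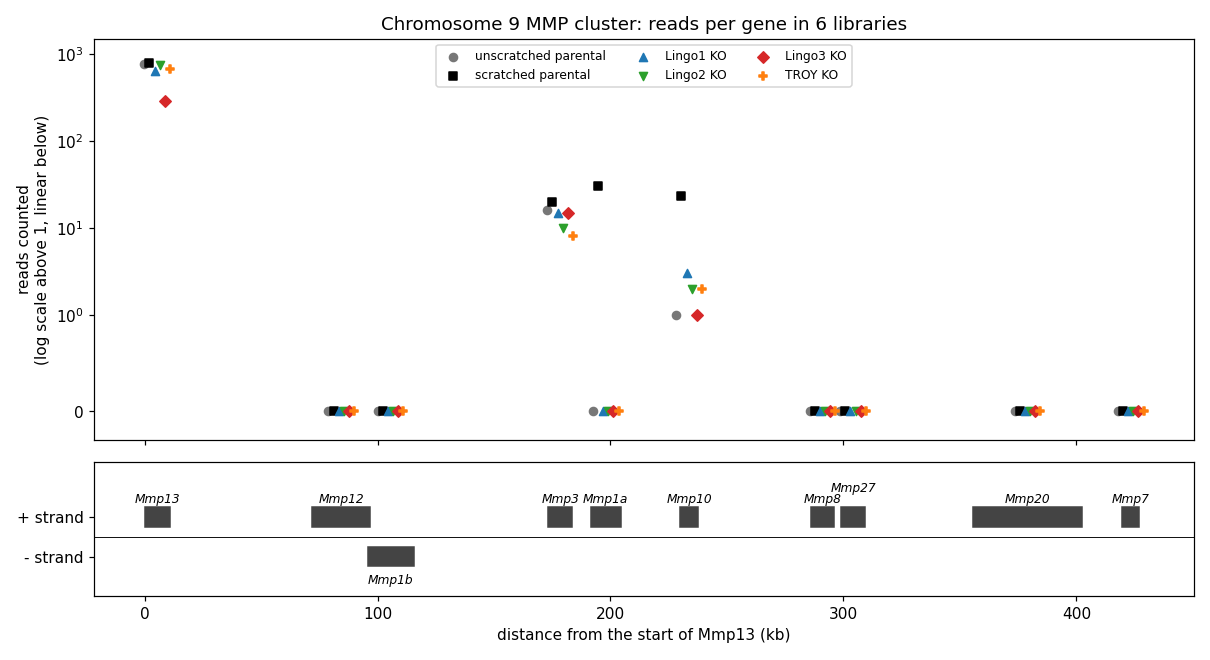
Reads counted in each library for the 10 Mmp genes of the chromosome 9 cluster (upper panel, log axis above 1), placed by distance in kb from the start of Mmp13, with the gene bodies by strand below. Mmp1a and Mmp10 are high in the scratched parental library alone (30 and 23 counts), and Mmp13 is lowest in the Lingo3 mutant (286 counts).

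Mmp2, the gelatinase of type IV collagen, lay on both sides of the parental level among the mutants. Its level was 6.88 and 5.62 CPM in the unscratched and scratched parental libraries, and 3.21, 4.07, 9.35 and 2.43 CPM in the Lingo1, Lingo2, Lingo3 and TROY mutants. The Lingo3 mutant was above both parental libraries and the 3 other mutants below both. Against the scratched parental library Mmp2 was 2.32-fold lower in the TROY mutant (1.75 to 3.09). It was 1.75-fold (1.35 to 2.29) below that library in the Lingo1 mutant and 1.66-fold (1.37 to 2.02) above it in the Lingo3 mutant, and neither was called. Between mutants, Mmp2 was 2.91-fold, 2.30-fold and 3.85-fold higher in the Lingo3 than in the Lingo1, Lingo2 and TROY mutants.

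The membrane-type MMPs split as well. Mmp14, which activates the MMP2 precursor at the cell surface, was not called, at 59.5 and 51.3 CPM in the unscratched and scratched parental libraries and at 55.3, 44.8, 51.4 and 46.7 CPM in the Lingo1, Lingo2, Lingo3 and TROY mutants. Mmp17, a membrane-type MMP held by a lipid anchor, was at 7.15 and 5.62 CPM in the parental libraries in that order, and at 7.07, 5.66, 14.4 and 5.15 CPM in the mutants. The Lingo3 mutant was high, and the other 5 libraries lay between 5.15 and 7.15 CPM. Mmp17 was 2.57-fold higher in the Lingo3 mutant than in the scratched parental library (2.15 to 3.08), and 2.04-fold, 2.55-fold and 2.80-fold higher than in the Lingo1, Lingo2 and TROY mutants. By the size rule, it was the 1 of the 26 genes higher in the Lingo3 library than in each of the 4 other scratched libraries, where 0.869% of all tested genes were. Mmp15, at 1.77 to 3.03 CPM, was not called, and the less abundant Mmp24 and Mmp25 passed the rule as higher in the Lingo3 mutant, with 28 and 16 counts against 8 and 1 in the scratched parental library. The ratio was 3.49 (1.55 to 8.87) for Mmp24 and 16.0 (2.48 to 670) for Mmp25. Mmp24 had 3, 17, 10 and 10 counts in the unscratched parental, Lingo1, Lingo2 and TROY libraries, and Mmp25 had 4, 4, 6 and 2. Mmp24 shares 13.6% of its exon bases with BC029722, on the opposite strand, which was at 9.04 CPM in the scratched parental library and 19.1 CPM in the Lingo3 mutant, so its reads are uncertain.

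Mmp11 and Mmp28 were not called in any mutant. Mmp11, stromelysin 3, the highest MMP per length, ran from 68.9 CPM in the scratched parental library to 93.7 CPM in the Lingo3 mutant (1.36-fold, 1.29 to 1.44). In the unscratched, Lingo1, Lingo2 and TROY libraries it was at 78.9, 76.1, 74.6 and 71.9 CPM. Mmp28, epilysin, which is known from epithelia, was at 8.38 and 6.11 CPM in the unscratched and scratched parental libraries and at 9.67, 8.60, 8.14 and 9.21 CPM in the Lingo1, Lingo2, Lingo3 and TROY mutants, with the scratched parental library lowest. Mmp23 was below the filter, with 25 and 30 counts in the unscratched and scratched parental libraries and 11, 13, 5 and 8 in the Lingo1, Lingo2, Lingo3 and TROY mutants. It passed the rule as lower in the Lingo3 mutant, 6.01-fold (2.31 to 19.9), and in the TROY mutant, 3.71-fold (1.66 to 9.36).

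Among the ADAMs, the abundant sheddases were not called and the calls fell on genes of low level. Adam10 was at 546 and 523 CPM in the unscratched and scratched parental libraries and at 583, 545, 483 and 631 CPM in the Lingo1, Lingo2, Lingo3 and TROY mutants. Adam17, which releases tumour necrosis factor and epidermal growth factor receptor ligands, was at 158 and 154 CPM in the parental libraries and at 170, 168, 160 and 177 CPM in the mutants in the same order. All 4 mutants were thus above both parental libraries for Adam17, but by 1.15-fold at most against the scratched one (in the TROY mutant). That non-overlap is common here, since 24.2% of all tested genes had all 4 mutants above both parental libraries.

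Adam9 and Adam15, which like ADAM10 are catalytically active and widely expressed, stayed within 1.28-fold of the scratched parental library. Adam9 stood at 241 and 237 CPM in the unscratched and scratched parental libraries and at 254, 224, 236 and 303 CPM in the Lingo1, Lingo2, Lingo3 and TROY mutants. The TROY mutant was thus the highest library for both Adam9 and Adam10. Adam15 was at 291 and 256 CPM in the parental libraries and at 250, 239, 255 and 236 CPM in the mutants in the same order. It shares 20.6% of its exon bases with an antisense gene, at 0.26 to 0.79 CPM. Adam22 (6.95 to 9.84 CPM) and Adam11 (2.58 to 3.12 CPM), which lack a working catalytic site and are known from neurons, were not called.

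Adam8, a sheddase known from leukocytes and inflamed airway, had the largest fold of the 26 genes in each mutant. It was counted at 2.37 and 2.60 CPM (68 and 79 reads) in the unscratched and scratched parental libraries, and at 0.650, 0.849, 0.394 and 0.499 CPM (18, 24, 12 and 15 reads) in the Lingo1, Lingo2, Lingo3 and TROY mutants. Both parental libraries were above all 4 mutants, which were each under 1 CPM, so Adam8 passed the filter only through the parental libraries. It was 4.0-fold (2.37 to 7.09), 3.06-fold (1.92 to 5.05), 6.60-fold (3.57 to 13.3) and 5.21-fold (2.98 to 9.74) lower in the Lingo1, Lingo2, Lingo3 and TROY mutants than in the scratched parental library. Whether a lower level reflects fewer cells with the transcript or less of it per cell cannot be told apart in these bulk samples. Of the leukocyte markers, whose sums are given above, 1 of 8 was tested (Cd68, not called) and Ptprc had 0 counts in both parental libraries. Their part in the Adam8 level was not tested. Adam8 lies at chr7:139978932-139992562 (GRCm38, minus strand), and its promoter, shown as an example of the GC box type (capitals, CCGCCC, first base 35 before the start), holds no AP-1 letters.
Adam8, chr7:139992563-139992812, minus strand: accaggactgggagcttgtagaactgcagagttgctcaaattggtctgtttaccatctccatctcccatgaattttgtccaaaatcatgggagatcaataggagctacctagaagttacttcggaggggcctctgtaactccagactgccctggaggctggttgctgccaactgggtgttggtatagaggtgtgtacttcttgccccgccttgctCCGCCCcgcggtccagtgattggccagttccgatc

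Adam1a, a fertilin alpha gene known from testis, moved in the same way but is uncertain. It was at 2.55 and 2.73 CPM (73 and 83 reads) in the unscratched and scratched parental libraries and at 0.830, 1.10, 0.459 and 1.26 CPM (23, 31, 14 and 38 reads) in the Lingo1, Lingo2, Lingo3 and TROY mutants, so the groups did not overlap. With a mutant median of 0.964 CPM, it passed the filter only through the parental libraries, like Adam8. It was 3.29-fold (2.05 to 5.47), 2.49-fold (1.63 to 3.89) and 5.94-fold (3.35 to 11.3) lower in the Lingo1, Lingo2 and Lingo3 mutants. In the TROY mutant the ratio was 2.16-fold (1.46 to 3.26), whose bound missed the rule. The gene shares 63.7% of its exon bases with the predicted gene Gm42878, 24% with Mapkapk5 and 11.3%, on the opposite strand, with Tmem116, so reads could be split between them, and whether strand was used in counting is not given in the sources used here.

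Adam19, a sheddase of neuregulins, was high in 1 library. It had 6 and 10 counts in the unscratched and scratched parental libraries and 16, 11, 99 and 13 in the Lingo1, Lingo2, Lingo3 and TROY mutants, and its mean was below the filter. In the Lingo3 mutant it was 9.88-fold higher (5.15 to 21.2) than in the scratched parental library, and 5.62-fold, 8.34-fold and 7.52-fold higher than in the Lingo1, Lingo2 and TROY mutants. It was 1 of 71 genes with at least 10 counts and 4 times the level of every other library in the Lingo3 mutant, of which 69 were protein-coding and 0 pseudogenes. Adam4, also known from testis, passed as lower in the Lingo1 mutant, with 4 counts against 22. It had 18, 11, 10 and 12 counts in the unscratched parental, Lingo2, Lingo3 and TROY libraries.

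**Figure D4:**
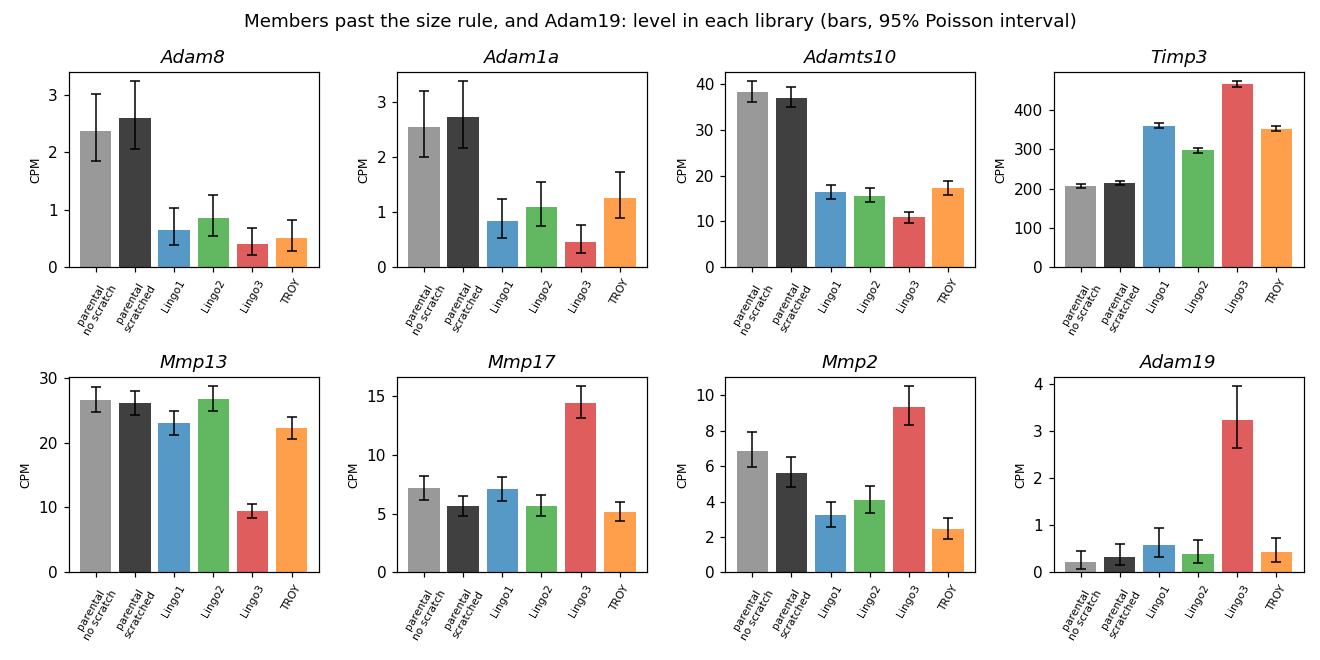
CPM in each of the 6 libraries (bars from 0, 95% Poisson intervals) for the 7 tested genes past the rule in at least 1 comparison and for Adam19. Adam8, Adam1a and Adamts10 are higher in both parental libraries than in any mutant. Mmp13 is lowest and Mmp17 and Adam19 are highest in the Lingo3 mutant, and Mmp2 runs from 2.43 CPM in the TROY to 9.35 CPM in the Lingo3 mutant.

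Of the secreted ADAMTS proteases, Adamts10 was lower in every mutant. ADAMTS10 binds fibrillin microfibrils, and its gene had 1097 and 1126 reads in the unscratched and scratched parental libraries, or 38.3 and 37.0 CPM. In the Lingo1, Lingo2, Lingo3 and TROY mutants it was at 16.3, 15.6, 10.9 and 17.2 CPM. The parental libraries lay together and well above all 4 mutants, among which the Lingo3 mutant was lowest. Adamts10 was 2.27-fold (2.03 to 2.54), 2.37-fold (2.12 to 2.65), 3.41-fold (3.01 to 3.87) and 2.15-fold (1.94 to 2.40) lower in the Lingo1, Lingo2, Lingo3 and TROY mutants than in the scratched parental library. No annotated gene shares its exons.

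No other tested ADAMTS gene was called against the scratched parental library. Adamts1, which cleaves versican and aggrecan, was at 4.85 and 5.06 CPM in the unscratched and scratched parental libraries and at 5.45, 4.99, 9.87 and 5.35 CPM in the Lingo1, Lingo2, Lingo3 and TROY mutants. The Lingo3 value was 1.95-fold (1.60 to 2.38) that of the scratched parental library, just under the rule, and 2.04-fold (1.66 to 2.51) that of the unscratched one, just over it. Adamts9 was at 22.4 and 18.7 CPM in the parental libraries and at 25.7, 20.7, 18.4 and 22.7 CPM in the mutants in the same order. Adamts7, which cleaves cartilage oligomeric matrix protein, was at 14.5 and 13.6 CPM in the parental libraries and at 12.9, 10.6, 12.6 and 14.1 CPM in the mutants. Adamts3, a procollagen N-proteinase, lay between 2.90 and 4.19 CPM. Below the filter, 3 ADAMTS genes passed the rule. Adamts2, another procollagen N-proteinase, had 11 counts in each parental library and 17, 3, 44 and 10 in the Lingo1, Lingo2, Lingo3 and TROY mutants, and passed as higher in the Lingo3 mutant (3.99-fold, 2.03 to 8.57). Adamts14, the remaining procollagen N-proteinase, had 1 and 4 counts in the unscratched and scratched parental libraries and 9, 20, 18 and 12 in the mutants, and passed as higher in the Lingo2 mutant (5.38-fold, 1.8 to 21.7). Adamts15, an aggrecanase, had 11 and 17 counts in the parental libraries and 3, 10, 32 and 2 in the mutants, and passed as lower in the TROY mutant (ratio 0.119, 0.0133 to 0.501).

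Timp3 was the 1 TIMP gene called. It was counted at 207 and 214 CPM in the unscratched and scratched parental libraries and at 361, 298, 466 and 353 CPM in the Lingo1, Lingo2, Lingo3 and TROY mutants, so all 4 mutants were above both parental libraries. It was 2.17-fold higher in the Lingo3 mutant (2.11 to 2.24), and called there. In the Lingo1, Lingo2 and TROY mutants the ratio was 1.68 (1.63 to 1.74), 1.39 (1.35 to 1.44) and 1.65 (1.60 to 1.70), short of the rule. Some fibroblast markers were also higher in the mutants, but so were markers of other cell types. Of the 8 listed, 4 were tested, of which 3 were higher in the Lingo3 mutant (background 4.63%) and 2 in each of the Lingo1, Lingo2 and TROY mutants (background 1.95%, 2.12% and 1.06%). Col1a1 was at 62.3 and 44.8 CPM in the unscratched and scratched parental libraries and at 170, 136, 398 and 146 CPM in the mutants. The 8 markers, mostly Dcn, summed to between 2579 and 2825 CPM in the parental and between 2745 and 3462 CPM in the mutant libraries, with Col3a1 at 0 counts in both parental libraries and at 62 counts in the Lingo3 mutant. Their part in the Timp3, Adam19 and Adamts2 levels was not tested. Timp3 lies inside the gene Syn3, with which it shares 21.3% of its exon bases and which was counted at 0.40 to 0.64 CPM. Its promoter is shown with its GC box letters in capitals, the first 15 bases before the start.
Timp3, chr10:86300162-86300411, plus strand: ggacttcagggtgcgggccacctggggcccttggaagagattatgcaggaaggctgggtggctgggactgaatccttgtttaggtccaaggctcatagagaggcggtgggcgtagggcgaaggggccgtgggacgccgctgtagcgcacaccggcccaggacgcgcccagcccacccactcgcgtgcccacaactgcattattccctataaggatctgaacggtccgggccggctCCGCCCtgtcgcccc

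Timp2 and Timp1 were not called. Timp2, which also takes part in MMP2 activation by MMP14, was at 1653 and 1542 CPM in the unscratched and scratched parental libraries and at 1632, 1571, 1459 and 1687 CPM in the Lingo1, Lingo2, Lingo3 and TROY mutants. Timp1 was at 11.8 and 13.2 CPM in the parental libraries and at 14.2, 16.5, 12.2 and 12.1 CPM in the mutants. The mutant values overlapped the parental values for both. Timp4 had 3 counts in the 6 libraries together.

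Setting the 4 mutant libraries beside both parental libraries, 3 of the 26 tested genes were lower in all 4 with a ratio of medians of at least 2, namely Adam8, Adam1a and Adamts10 (background 1.41%), and 0 were higher (background 2.07%). The ratio of medians was 4.33 for Adam8, 2.74 for Adam1a and 2.36 for Adamts10, parental over mutant. Adam8 and Adam1a had mutant medians of 0.574 and 0.964 CPM and passed the filter only through the parental libraries, where they are high. Of the 3 genes, only Adamts10 was in the tested set whichever group is considered. Without the ratio, 5 of 26 were lower in all 4 mutants, the 3 above with Adam15 and Adam22, against 21.9% of all tested genes, and 3 were higher, Adam17, Adamts4 and Timp3, against 24.2%. Adamts4, an aggrecanase that passed the filter only through the mutants, was at 0.907 and 0.953 CPM in the unscratched and scratched parental libraries and at 1.77, 1.13, 2.0 and 1.53 CPM in the Lingo1, Lingo2, Lingo3 and TROY mutants. The share of reads that fell in no annotated gene was also higher in the parental libraries, at 7.8% and 8.02%, than in the mutants, at 5.44%, 6.41%, 4.98% and 6.2% in the same order. Its part in the lower Adam8, Adam1a and Adamts10 counts was not tested. The Lingo1, Lingo2 and TROY mutants did not differ from each other by the rule for any of the 26 genes, where 0.0166% (Lingo2 against Lingo1), 0.215% (TROY against Lingo1) and 0.364% (TROY against Lingo2) of all tested genes did. The Lingo3 mutant differed from each of them in Mmp2, Mmp13 and Mmp17, 3 of 26, where 1.65%, 1.61% and 2.61% of all tested genes differed from the Lingo1, Lingo2 and TROY mutants. The scratched parental library stood above each of the 4 mutants by the rule for Adam8 and Adamts10 (background 0.836%).

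Enzymes and proteins that act with these proteases were read from lists of 8 groups. Of 4 tested proprotein convertases, which activate MMP and ADAM precursors, Pcsk5 was lower in the Lingo1 (2.17-fold), Lingo2 (2.54-fold) and Lingo3 (6.99-fold) mutants (background 1.67%, 1.38% and 2.56% lower). It was at 60.4 and 50.5 CPM in the unscratched and scratched parental libraries and at 23.2, 19.9, 7.22 and 28.3 CPM in the Lingo1, Lingo2, Lingo3 and TROY mutants. Furin was not called, at 87.6 to 116 CPM. Of 8 tested partners of ADAM10 and ADAM17, the tetraspanin gene Tspan17, which binds ADAM10, was higher in the Lingo2 (2.41-fold) and Lingo3 (3.56-fold) mutants (background 2.12% and 4.63% higher). The iRhom genes Rhbdf1 and Rhbdf2, which carry ADAM17 to the surface, were not called. Of 2 tested further inhibitors, Spock2, a testican, was 4.23-fold higher in the Lingo3 mutant (3.97 to 4.51, background 4.63% higher), at 168 CPM against 39.6 CPM. Reck, a membrane-anchored inhibitor, was not called.

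Several substrates of the sheddases were called. Of 18 tested, 4 were higher in the Lingo1 mutant and 4 in the Lingo2 mutant (in each Areg, Ereg, Hbegf and Notch1), 6 in the Lingo3 mutant (Areg, Tgfa, Cd44, Notch1, Cx3cl1 and L1cam) and Areg alone in the TROY mutant. Over all tested genes, 1.95%, 2.12%, 4.63% and 1.06% were higher in the Lingo1, Lingo2, Lingo3 and TROY mutants. Areg, Ereg, Hbegf and Tgfa encode ligands of the epidermal growth factor receptor. Hbegf was at 37.9 and 31.2 CPM in the unscratched and scratched parental libraries and at 68.9, 64.7, 60.7 and 60.1 CPM in the Lingo1, Lingo2, Lingo3 and TROY mutants, so all mutants were above both. Areg stood at 1.54 and 1.45 CPM in the parental libraries and between 3.28 and 3.86 CPM in the mutants. App, the amyloid precursor, was 2.06-fold lower in the Lingo3 mutant (background 2.56% lower). These counts concern transcripts, and shedding was not measured.

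Among matrix targets and relatives, Vwf was the 1 of 2 tested ADAMTS substrates called, higher after the scratch and lower in all 4 mutants, where it rests on the scratched parental library described above. The background was 0.0828% in either direction after the scratch. It was 1.67%, 1.38%, 2.56% and 1.18% lower in the Lingo1, Lingo2, Lingo3 and TROY mutants. Of 5 tested ADAMTS-like genes, which lack the protease domain, Adamtsl3 was 6.64-fold and Adamtsl4 2.13-fold higher in the Lingo3 mutant (background 4.63%). In a list of 7 astacin proteases and their enhancers, 3 genes were tested and none was called. The proteases Tll1, Tll2 and Mep1a were below the filter, and Mep1b had 0 counts. Of 13 regulators of the AP-1, ETS and RUNX families, known to bind MMP promoters, none was lower in a mutant. Fos was higher in all 4, at 42.4 and 48.0 CPM in the unscratched and scratched parental libraries and at 208, 196, 218 and 188 CPM in the Lingo1, Lingo2, Lingo3 and TROY mutants. Fosb was higher in all 4 as well, Junb in the Lingo1, Lingo3 and TROY mutants and Fosl1 in the Lingo3 mutant. The share of all tested genes called higher was 1.95%, 2.12%, 4.63% and 1.06% in the Lingo1, Lingo2, Lingo3 and TROY mutants. Apart from Vwf, no tested gene of the 8 groups was called in the scratch comparison.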

How the data were processed

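Gene-level counts from 6 RNA sequencing libraries, 1 per group, and a table of RPKM values and log2 ratios were deposited by the authors. The submitters' processing notes name Trimmomatic 0.39, STAR, HTSeq, edgeR and the genome build GRCm38, without order or settings. The RPKM unit of the deposited table was read from its values: in 7594 well-counted genes they followed the counts, up to factors per gene and library, to within an SD of 0.000718 on the log2 scale. It holds 13559 genes with values. The log2 ratios deposited by the authors served as a check and differed from the ratios computed here by at most 0.024 in the 26 tested genes.

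The counts as deposited were scaled with TMM factors (edgeR 4.0.16, R 4.3.3), without the HTSeq summary lines (no-feature reads were between 4.98% and 8.02%, ambiguous reads between 3.31% and 4.08% of uniquely aligned reads). Of 46078 identifiers, 45143 were matched to symbols, with positions from GENCODE release M21. Groups came from the labels. With 1 library a group, no test was possible. Folds have exact 95% Clopper-Pearson intervals of the share of 2 counts (SciPy 1.17.1), levels exact Poisson intervals. A floor of 3 counts, 0.0984 to 0.108 CPM, replaced 0. Reads were not tagged as single molecules, so intervals cover counting error only.

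Given with all 6 values were the tested genes past the size rule in at least 1 of 5 comparisons, Mmp2 and Adam8, and the 4 of each family with the highest mean RPKM (3 for the TIMPs with RPKM). Up to 4 members of each of 15 lists past the rule were named, except for 1 list that is not reported here. A few genes below the filter, Adamts4, Hbegf, Pcsk5 and other values outside that rule were chosen after their values were seen. The members and lists were chosen with earlier results of these data known. Alternatives were total counts, DESeq2 1.42.0 size factors, other filters and thresholds, the authors' RPKM, the unscratched control and leaving out the Lingo3 library. Among cell type lists, called genes in the mutants were Sftpb, Sftpc (alveolar type II), Epcam (epithelial), Col1a1, Pdgfra, Pdgfrb (fibroblast) and Tek (endothelial), all higher. None of the leukocyte list was called and none of the neutrophil list was tested.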

Additional observations from a re-analysis of the deposited data

Results flagged for a closer look

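Mmp2 lay on opposite sides of the same control library in 2 mutants. Against the scratched parental library its log2 ratio was 0.73 in the Lingo3 mutant and -1.21 in the TROY mutant, each from 1 library. The Lingo3 level, 9.35 CPM, was above all 5 other libraries and the TROY level, 2.43 CPM, below all 5. The ratio between these 2 mutants was 3.85-fold (2.97 to 5.05, counting error only). The difference was not tested, because neither group had a second library.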

How the results depend on the processing

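No paired analysis was possible because each group had 1 library and the labels give no replicate numbers. For the same reason no library could be left out within a group. None of the 15 ratios of named genes that passed the rule changed sign under total counts, DESeq2 size factors, the authors' RPKM or the unscratched control. Among ratios that did not pass, 10 changed sign with total counts, 16 with the unscratched control and 1 each with DESeq2 size factors and the authors' RPKM, and these had a log2 ratio of at most 0.41 in size. The count of called genes depended on the filter and the threshold. Without a filter on low counts it was 2 after the scratch (0 with the filter), 6 in the Lingo1 and 6 in the Lingo2 mutant (3 each), 13 in the Lingo3 mutant (6) and 7 in the TROY mutant (3), and 8 genes separated the 4 mutants from the parental libraries (3). With a mean of at least 5 CPM, 1 gene was called in the Lingo1 and 1 in the Lingo2 mutant and 1 separated the mutants from the parental libraries, since Adam8 and Adam1a were then not tested. With a fold of 1.5 and a looser bound the count was 1 after the scratch, 6 in the Lingo1 and 5 in the TROY mutant. With a fold of 3 and a bound of 2 it was 0 in the Lingo2, 3 in the Lingo3 and 1 in the TROY mutant. Total counts, DESeq2 size factors and the unscratched control left every count within 1.5 times its value, and so did leaving out the Lingo3 library for the separation of mutants and parental libraries. Total counts added Adam1a in the TROY mutant. Of 95 log2 ratios of the named genes, DESeq2 size factors left all 95 within their counting intervals, the authors' RPKM 94 and total counts 69. With the unscratched control 39 were within and 37 outside. Depth limits the genes of low count: the Adam8 and Adam1a folds rest on 12 to 83 reads a library.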
